A study of Bos taurus with 12 samples.

Results

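The protein genes of the cytosolic ribosome were compared between female and male bovine blastocysts. They were chosen by symbol, as names that start with RPL or RPS and a digit, together with RPLP0, RPLP1, RPLP2 and RPSA, and without the RPS6K kinases and the unnamed LOC genes. This gave 85 of the 32637 genes in the table of counts. Of these, 51 encode proteins of the large subunit or their paralogs and 33 those of the small subunit. The remaining gene, RPS19BP1, encodes a binding partner of RPS19 and no subunit. Paralogs whose symbols add L or L1 to another name made up 7 of the 85 (RPL3L, RPL7L1, RPL10L, RPL22L1, RPL26L1, RPL36AL and RPS27L).

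The small subunit of the ribosome decodes the mRNA and the large subunit joins the amino acids. Their proteins assemble with ribosomal RNA in the nucleolus, and free copies that find no partner are degraded. Their mRNAs are short and abundant, start with a run of pyrimidines (the TOP motif), and are translated under the control of mTOR. A blastocyst makes its ribosomes from its own genome, since the store inherited from the egg is replaced after the embryonic genome is switched on.

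The libraries came from expanded blastocysts of cattle (Bos taurus) made by in vitro fertilization, with 6 pools of female and 5 of male embryos, and mRNA was sequenced. No treatment or allele separated the groups, and sex was the factor compared. Embryos were collected on the seventh or the eighth day and cut, with the inner cell mass and the trophectoderm both in each piece, and a pool joined pieces from a pair of embryos of the same sex. The other pieces were used to sex the embryos by PCR. Oocytes came from slaughterhouse ovaries and semen from bulls used in weekly rotation, and the labels give neither the week nor the bull of a pool. The replicate is the pool, so p-values measure the spread between pools, and fewer cells of a type cannot be told apart from less RNA per cell in such samples.

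The female libraries held 6664112 to 16162985 counted reads and the male libraries 9942952 to 21392764. XIST, the RNA that coats the inactive X chromosome, lay between 52.3 and 261 CPM (counts put on the same library size by scaling factors) in females and between 0.745 and 3.97 in males. DDX3Y, on the Y chromosome, lay between 0 and 1.89 CPM in females and between 31.9 and 152 in males, so the labels held in each library. Of the inner cell mass markers, 6 of 7 were in the table and had counts in each library, and their summed level was 560 to 980 CPM in females and 792 to 1076 in males. The sum of 10 trophectoderm markers was 7879 to 23154 CPM in females and 9195 to 36145 in males, and that of 7 hypoblast markers 228 to 621 and 208 to 467. The sum of 7 cumulus cell markers stayed at 7.19 to 32.7 CPM in females and 5.38 to 29.5 in males. Each of these sums overlapped between the sexes, and their part in the results was not tested. KRT8 and LGALS3 had the highest mean levels of the 10 trophectoderm markers, so they weigh most in that sum. By the log2 fold change of male over female, 5 of the 10 lay above 0 and 5 below. Without male replicate 5 only 1 of the 10 lay above 0. PTGS2 was furthest from 0 (-1.20, SE 0.36, adjusted p = 0.166 by the edgeR test used below). Male replicate 5 had the fewest genes with a count, 14937 against 16991 to 17436 in the other males and 16985 to 18550 in females. It also held the most counted reads (21392764).

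Enough counts for a test were found for 81 of the 85 genes, with 807 to 48704 counts per gene and library. The counting error of the lowest of these values was 3.52%, which is small beside the spread between pools. RPL37 of the large subunit and RPS23 of the small subunit were listed at 0 counts in all 11 libraries, against a limit of 3 counts per library that covers counting error only. RPS23 lies at chromosome 7, 82217490-82219272 (ARS-UCD2.0), within the span of ATG10, while RPL37 overlaps no other protein-coding gene. The other members that overlap a protein-coding gene all had enough counts for a test, for example 8026 to 25450 for RPS6. Whether the counts of 0 come from absent RNA or from the way reads were counted was not tested. RPL3L and RPL10L, paralogs known from muscle and from testis, had 0 to 4 counts in each library. The 85 genes lie on 28 chromosomes, with the most on chromosome 18 (9) and with 4 on the X chromosome.

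Ribosomal protein genes on the autosomes were higher on average in males, and those on the X chromosome were lower. The log2 fold change of male over female was above 0 for 77 of 77 autosomal genes (74 with library totals and no scaling factors), from 0.06 to 1.01 with a median of 0.31. Over all tested autosomal genes 52.4% had a log2 fold change above 0, their median was 0.02, and 21.1% lay above the median of the members. The 4 X-linked genes RPL39, RPS4X, RPL36A and RPL10 had log2 fold changes from -0.78 to -0.46, below 0 with each scaling tried. Standard errors of the single genes ran from 0.11 to 0.26 on the log2 scale. RPL22L1, RPL13A and RPL36 rose in males and RPL39 fell, by the quasi-likelihood test of edgeR with p-values adjusted over all tested genes. A gene was called where the false discovery rate (FDR) was under 0.1 and the change exceeded 1.5-fold. Called higher in males were 3 of 81 tested members, beside 0.414% of all tested genes and 0.345% of the autosomal ones. Called higher in females was 1 of 81, beside 1.5% of all tested genes and 27.7% of the X-linked ones. At an unadjusted p under 0.05, 39 of the 77 autosomal members were higher in males, beside 6.47% of autosomal genes, and 4 of 4 X-linked members were lower, beside 62.6% of X-linked genes. Each male pool lay above each female pool for 19 autosomal members, beside 1.41% of autosomal genes. The median SD of log2 CPM between pools of a sex was 0.190 for the members and 0.483 for all tested genes. These shares thus compare genes of unlike spread. Members also rose or fell together in single pools, as given below.

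**Figure D1:**
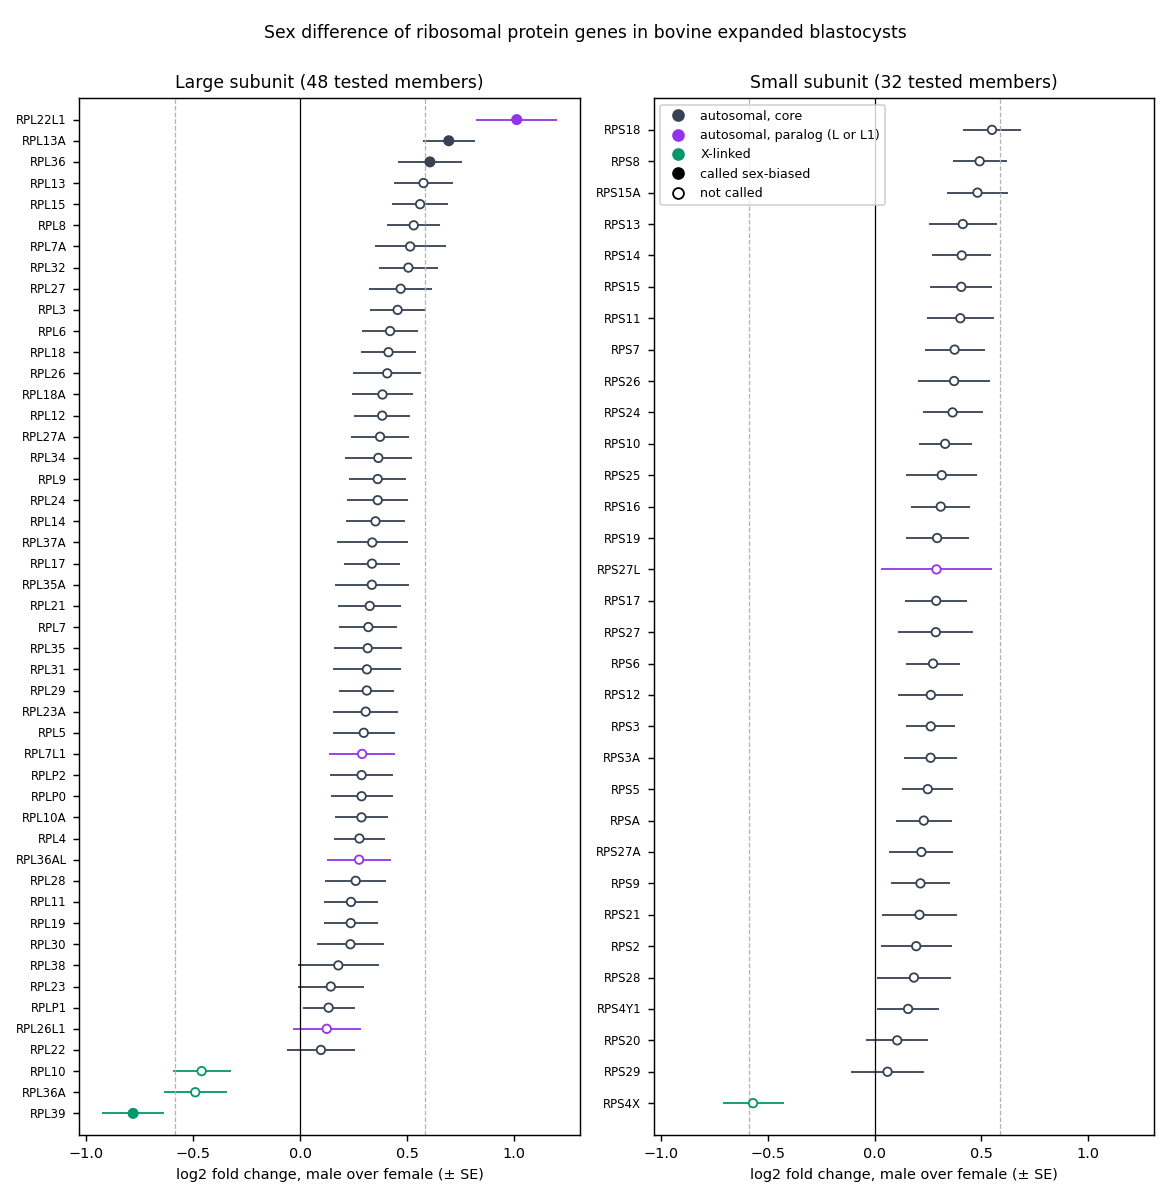
Log2 fold change of male over female (horizontal axis, points, with bars of ± 1 standard error) for each tested gene of the large subunit (left) and of the small subunit (right), from 6 female and 5 male pools, with dashed lines at a fold change of 1.5. All 76 autosomal points lie right of 0 (with library totals and no scaling factors 74 of the 77 tested autosomal genes, RPS19BP1 included, do) and the 4 X-linked points lie left of it.

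RPL39 is among the smallest proteins of the large subunit and lines its exit tunnel. The gene lies at X: 4150544-4153940 and holds a snoRNA and a miRNA within its span. Its level in females was 357 CPM at the lowest, 407 at the median and 463 at the highest. In males it was 251, 192, 246, 285 and 206 CPM in replicates 1 to 5. Each male pool lay below each female pool, as for 3 of the 4 X-linked members beside 29.2% of the tested X-linked genes. RPL39 was 1.72-fold higher in females (log2 fold change -0.78, SE 0.15, adjusted p = 0.0281). The call held in each of the 11 fits without 1 library. Its log2 difference was -0.99, -0.68 and -0.66 within library numbers 1, 2 and 3, the first number of a library's name. Number 2 holds only 1 male pool, replicate 3, so each difference within it rests on that library.

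RPS4X encodes a protein of the small subunit at X: 78400272-78404695, and in some mammals it has a partner on the Y chromosome. Its level in females ran from 621 to 988 CPM with a median of 874. The males had 530, 533, 584, 640 and 488 CPM. Female replicate 5 lay below male replicate 4, so the sexes overlapped by this pair of pools. The log2 fold change of -0.57 (SE 0.14) had an adjusted p of 0.0924 but stayed short of the fold threshold, and RPS4X was called without female replicate 5 (-0.65, adjusted p = 0.0917) and without male replicate 4 (-0.68, adjusted p = 0.0311).

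RPL10, which helps shape the site where peptide bonds form, and RPL36A, near the site where emptied tRNA leaves, are the other X-linked members. RPL10 (X: 37451253-37453614) had 717 CPM at the lowest, 880 at the median and 1009 at the highest in females. The males had 555, 668, 598, 683 and 661 CPM, each below each female. RPL36A (X: 50819016-50822415) had 285, 336 and 375 CPM at the same points in females and 248, 221, 240, 282 and 173 in males, again without overlap. Neither passed the threshold, at log2 fold changes of -0.46 (SE 0.14, adjusted p = 0.156) for RPL10 and -0.49 (SE 0.15, adjusted p = 0.162) for RPL36A. Without male replicate 4 RPL36A was called (-0.63, adjusted p = 0.0386).

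The X-linked ribosomal protein genes were set beside the rest of the X chromosome. Over the 476 tested X-linked genes the median log2 fold change was -0.85, beside -0.53 for the 4 members. Of these X-linked genes 54.4% lay below RPL39 in log2 fold change, 73.3% below RPS4X, 77.7% below RPL36A and 78.8% below RPL10. The autosomal members lay above the autosomal median, and the difference between the X-linked and the autosomal median was -0.84 for the ribosomal protein genes and -0.87 for all tested genes. X-linked members took 4.99% to 5.53% of the counts on all members in females and 2.86% to 3.03% in males, with no overlap and with no scaling factor in this share.

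RPS4Y1, named for a copy on the Y chromosome, is annotated on chromosome 23 (10550055-10565856) in this assembly. Its level was 584 to 691 CPM in females, with a median of 626, and 547, 795, 696, 855 and 640 CPM in males. The groups overlapped and the log2 fold change was 0.16 (SE 0.14, adjusted p = 0.698). The ratio of RPS4X to RPS4Y1 counts, a value free of library scaling, ran from 1.06 to 1.49 in females. In males it was 0.969, 0.671, 0.839, 0.748 and 0.763, below each female. Their summed level overlapped between the sexes, at 1205 to 1679 CPM in females and 1078 to 1495 in males.

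RPL36AL on chromosome 10 (42657417-42659093) is the autosomal partner of RPL36A. It had 569 to 722 CPM in females and 705, 789, 765, 1030 and 619 in males, with a log2 fold change of 0.28 (SE 0.15, adjusted p = 0.471). The ratio of RPL36A to RPL36AL counts was 0.445 to 0.581 in females and 0.352, 0.280, 0.314, 0.274 and 0.280 in males, again with no overlap. The sums of the pair overlapped, at 854 to 1096 CPM in females and 792 to 1312 in males. These near copies can share reads, and how the counting treated reads with several matches is not given in the sources used here.

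**Figure D2:**
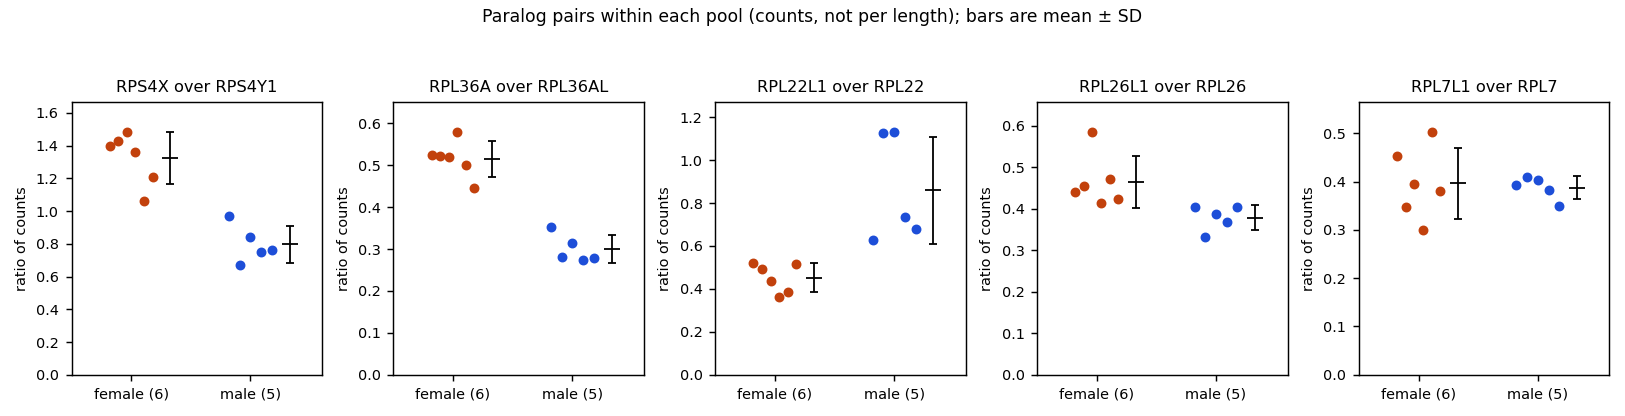
Ratio of counts of a member to its paralog (vertical axes, from 0, not corrected for length) in each female and male pool (points), with mean ± SD beside them. RPS4X over RPS4Y1, RPL36A over RPL36AL and RPL26L1 over RPL26 lie lower in each male pool than in each female pool, RPL22L1 over RPL22 lies higher, and RPL7L1 over RPL7 overlaps.

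RPL22L1 showed the widest sex difference among the members. It is a paralog of RPL22 that can take its place in the large subunit and also binds mRNA, and lies at chromosome 1, 96572445-96576821. The females had 118 CPM at the lowest, 152 at the median and 168 at the highest. The males had 228, 348, 363, 343 and 186 CPM, each above each female, with replicates 1 and 5 nearest to them. It rose 2.02-fold (log2 fold change 1.01, SE 0.19, adjusted p = 0.0281), and the call was lost without male replicate 3 (0.90, adjusted p = 0.166). Within library numbers 1, 2 and 3 the log2 difference was 0.78, 1.36 and 0.92.

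RPL22 itself, on chromosome 16, had 292 to 359 CPM in females and 363, 309, 320, 467 and 275 in males. Its log2 fold change was 0.10 (SE 0.16, adjusted p = 0.849) and turned to -0.071 without male replicate 4 and to -0.018 with library totals and no scaling factors. The ratio of RPL22L1 to RPL22 counts ran from 0.361 to 0.520 in females and was 0.629, 1.13, 1.13, 0.734 and 0.677 in males, above each female.

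The other paralogs with enough counts did not pass the threshold. RPL26L1 had 98.6 to 147 CPM in females and 94.7 to 153 in males (log2 fold change 0.12, SE 0.16, adjusted p = 0.794; -0.020 without male replicate 4), while its parent RPL26 had 225 to 291 and 234 to 416 CPM (0.41, SE 0.16, adjusted p = 0.287). The ratio of the pair was 0.414 to 0.586 in females and 0.333 to 0.404 in males, without overlap. RPS27L, known as a target of p53, varied most between pools, with 104 to 223 CPM in females and 140 to 314 in males (0.29, SE 0.26, adjusted p = 0.690), and RPS27 had a log2 fold change of 0.29 (SE 0.18, adjusted p = 0.527). RPL7L1, whose product works in ribosome assembly in the nucleolus, had 408 to 594 CPM in females and 435 to 685 in males (0.29, SE 0.15, adjusted p = 0.461), beside 0.32 (SE 0.14, adjusted p = 0.340) for RPL7. The ratios of RPS27L to RPS27 and of RPL7L1 to RPL7 overlapped between the sexes.

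RPL13A is a protein on the outer face of the large subunit that is also known for binding the mRNAs of inflammatory genes when released from the ribosome. The gene (chromosome 18, 55940635-55944163) holds 4 snoRNAs. Its level in females was 414 CPM at the lowest, 442 at the median and 472 at the highest. In males it was 651, 725, 665, 799 and 758 CPM, so the lowest male pool lay well above the highest female pool. RPL13A rose 1.62-fold (log2 fold change 0.70, SE 0.12, adjusted p = 0.0185), the smallest adjusted p among the members. The call held in each of the 11 fits without 1 library, and its differences within library numbers 1, 2 and 3 were 0.58, 0.55 and 0.90. With library totals and no scaling factors its log2 fold change was 0.58 (adjusted p = 0.0278), just under the fold threshold.

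RPL36 (chromosome 7, 18604090-18610222) is a small protein on the surface of the large subunit, and its span overlaps LONP1, a mitochondrial protease gene. It had 179 CPM at the lowest, 195 at the median and 221 at the highest in females. The males had 289, 292, 254, 419 and 271 CPM, each above each female, with replicate 4 apart from the rest. RPL36 rose 1.52-fold (0.61, SE 0.15, adjusted p = 0.0844), the weakest of the calls. Among the 11 fits without 1 library the call held in 1, that without male replicate 5 (0.66, adjusted p = 0.0472), while the adjusted p of the others ran from 0.109 without male replicate 4 to 0.230 without female replicate 6. LONP1 had 26.5 ± 5.80 CPM in females (SD, n = 6) and 31.2 ± 13.9 in males (SD, n = 5), with a log2 fold change of 0.24 (SE 0.28, adjusted p = 0.773).

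**Figure D3:**
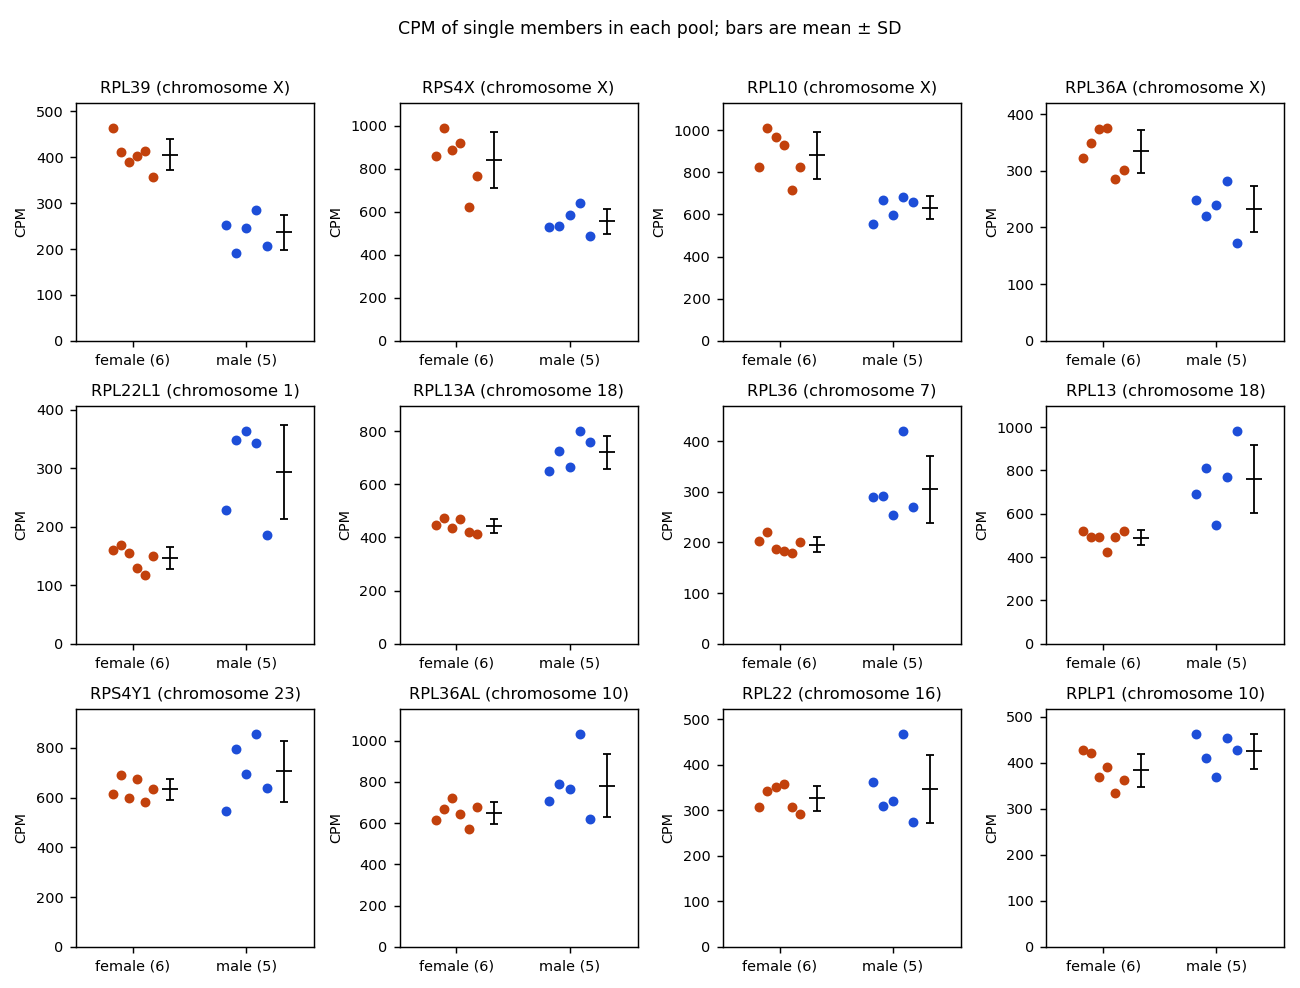
Level in CPM (vertical axes, from 0) of 12 ribosomal protein genes in each of 6 female and 5 male pools (points), with mean ± SD beside them. RPL39, RPL10 and RPL36A lie lower in each male pool, RPL22L1, RPL13A, RPL36 and RPL13 lie higher in each, and RPS4X, RPS4Y1, RPL36AL, RPL22 and RPLP1 overlap.

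A further 4 autosomal members passed the FDR of 0.1 with a fold change under 1.5, all higher in males. In all, 7 of 77 autosomal members were higher in males at this FDR, beside 0.485% of autosomal genes, and 2 of 4 X-linked members (RPL39 and RPS4X) were lower, beside 28.4% of X-linked genes. RPL8, a protein at the core of the peptide-joining site, had 1064 to 1258 CPM in females and 1480, 1968, 1515, 1708 and 1804 in males (log2 fold change 0.53, SE 0.12, adjusted p = 0.0699). RPL15 had 545 to 673 CPM in females and 819, 1125, 814, 1021 and 916 in males (0.56, SE 0.13, adjusted p = 0.0723). For both, the lowest male pool lay above the highest female pool. RPL13 had 422 to 522 CPM in females and 689, 811, 549, 772 and 980 in males (0.58, SE 0.14, adjusted p = 0.0763). RPS18 of the small subunit, named here after its values were seen, had 697 to 842 CPM in females and 1048, 1227, 983, 1408 and 1099 in males (0.55, SE 0.14, adjusted p = 0.0852). These 2 genes also separated the sexes without overlap. The number of members past this FDR, higher in males, moved between 1 (without male replicate 3) and 15 (without male replicate 5) when 1 library was left out, with 2 in each of the fits without female replicate 1, 2, 4, 5 or 6 or male replicate 2, and 4 without female replicate 3, male replicate 1 or male replicate 4.

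The stalk of the large subunit, which recruits the elongation factors, is made of RPLP0 and the acidic proteins RPLP1 and RPLP2. RPLP0 had 1334 to 1919 CPM in females and 1611, 1844, 1644, 2182 and 2360 in males (log2 fold change 0.29, SE 0.15, adjusted p = 0.430). RPLP1 had 334 to 428 CPM in females and 462, 411, 369, 454 and 429 in males (0.13, SE 0.12, adjusted p = 0.696). RPLP2 had 243 to 302 CPM in females and 340, 317, 309, 414 and 268 in males (0.29, SE 0.15, adjusted p = 0.436). The sexes overlapped for each of the 3 stalk genes. RPL3, which sits near the peptide-joining site and is the parent of RPL3L, had 658 to 847 CPM in females and 953, 1115, 944, 963 and 1254 in males, with no overlap (0.46, SE 0.13, adjusted p = 0.131).

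On the small subunit, RPSA, which is also known as a receptor for laminin, had 887 to 1147 CPM in females and 1041, 1420, 1166, 1104 and 1171 in males (log2 fold change 0.23, SE 0.13, adjusted p = 0.490). RPS19BP1, whose product binds RPS19 and acts in small subunit assembly, had 153 to 185 CPM in females and 188, 177, 184, 224 and 221 in males (0.16, SE 0.12, adjusted p = 0.601). Both overlapped between the sexes. RPS29 and RPS20 had the smallest differences of the small subunit, with log2 fold changes of 0.06 (SE 0.17) and 0.11 (SE 0.14).

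The large and the small subunit were then compared. Of 48 tested genes of the large subunit, 45 are autosomal, with log2 fold changes from 0.10 to 1.01 and a median of 0.34. Of 32 tested genes of the small subunit, 31 are autosomal, with log2 fold changes from 0.06 to 0.55 and a median of 0.29. With the X-linked genes the medians were 0.32 for the large subunit and 0.29 for the small subunit. All 3 genes called higher in males and the 1 called lower belong to the large subunit. Among all tested genes, 0.345% of autosomal genes were called higher in males and 27.7% of X-linked genes higher in females. In the small subunit 0 were called by the same edgeR test. There 1 gene was called lower in males, and 0 higher, by edgeR with no replicate block, with TMM factors from autosomal genes, with at least 10 counts in every library, with library totals, without female replicate 5, without male replicate 4 or without both, and by DESeq2 without the library number but not with it. At an unadjusted p under 0.05, 26 genes of the large subunit were higher in males and 3 lower, and 13 of the small subunit were higher and 1 lower. The lower genes are the X-linked members. Among all tested genes, 6.47% of autosomal genes were higher in males and 62.6% of X-linked genes lower at this p. Each male pool lay above each female pool for 11 genes of the large subunit and 8 of the small subunit, beside 1.41% of autosomal genes. Within library numbers 1, 2 and 3 the median log2 difference of the autosomal genes was 0.22, 0.29 and 0.47 for the large subunit and 0.26, 0.14 and 0.44 for the small subunit, so their order was not the same in each.

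The counts on large subunit genes over those on small subunit genes gave a ratio in each pool that needs no scaling. It was 1.31, 1.26, 1.23, 1.20, 1.28 and 1.29 in female replicates 1 to 6, with a mean of 1.26 ± 0.0391 (SD, n = 6). In males it was 1.27, 1.34, 1.30, 1.27 and 1.38, with a mean of 1.31 ± 0.0480 (SD, n = 5). The groups overlapped, and the means differed by about the spread between pools. They also overlapped without the paralogs, at 1.15 to 1.24 in females and 1.21 to 1.33 in males. With autosomal genes alone the ratio was 1.17 to 1.28 in females and 1.25 to 1.37 in males, again with overlap. Only when taken as the median count over large subunit genes divided by that over small subunit genes did the ratio not overlap. It was then 0.692 to 0.798 in females and 0.808 to 0.841 in males. These medians include the genes at 0 counts and the X-linked genes. These ratios compare counts and not molecules, because the genes differ in length.

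**Figure D4:**
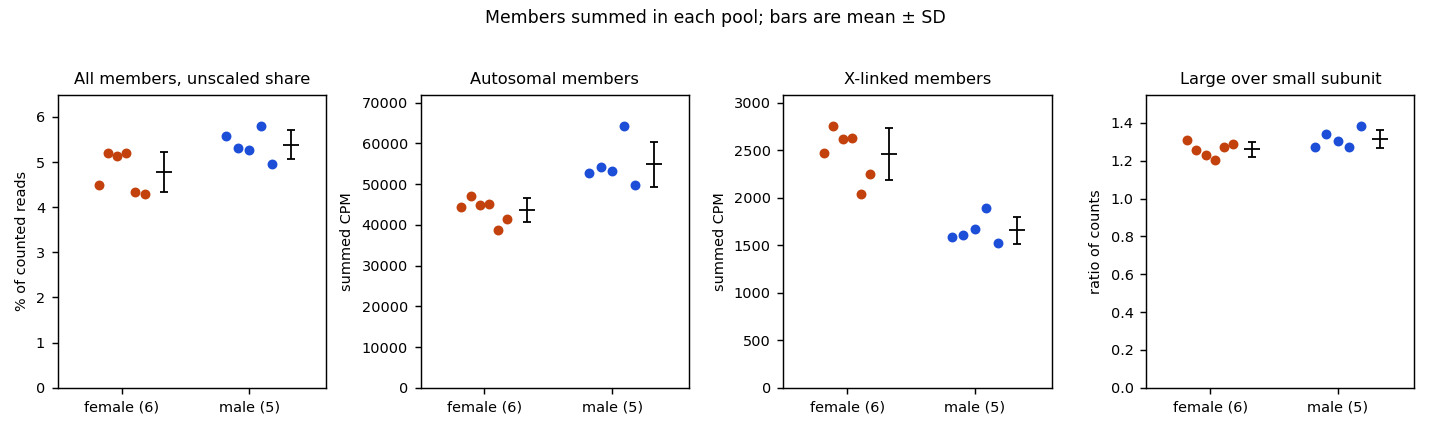
Sums over the members in each female and male pool (points, with mean ± SD beside them), as the share of counted reads with no scaling, the summed CPM of autosomal and of X-linked members, and the ratio of large to small subunit counts, on axes from 0. The unscaled share and the ratio overlap between the sexes, the autosomal sum lies higher in each male pool and the X-linked sum lower.

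Together the ribosomal protein genes took 4.30% to 5.21% of the counted reads in females, with a mean of 4.78% ± 0.446 (SD, n = 6), and 4.95% to 5.80% in males, with a mean of 5.38% ± 0.324 (SD, n = 5). Female replicates 2, 3 and 4 lay between 5.13% and 5.21%, above male replicate 5. With factors of the trimmed mean of M values (TMM), which set the bulk of the genes level between libraries, the autosomal members summed to 38772 to 47028 CPM in females and 49764 to 64245 in males. These sums did not overlap, and their means stood in a ratio of 1.26. Without scaling the autosomal members took 4.08% to 4.92% of the reads in females and 4.80% to 5.63% in males, which overlapped. The scaling factors averaged 1.04 in females and 0.957 in males. The X-linked members summed to 2036 to 2755 CPM in females and 1528 to 1890 in males, without overlap.

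Single pools stood apart. Male replicate 4 was the highest library for 59 of the 77 tested autosomal members, and female replicate 5 the lowest for 41. In male replicate 4 the median autosomal member lay 0.58 above the female mean on the log2 scale, and in the other males between 0.13 and 0.30. Without male replicate 4 the log2 fold change was above 0 for 71 of the 77 and the median was 0.21, and without both male replicate 4 and female replicate 5, an alternative chosen after seeing the data, it was above 0 for 72. Within library numbers 1, 2 and 3 the counts above 0 were 72, 64 and 77 of the 77 autosomal members, with medians of 0.24, 0.24 and 0.45. Number 2 holds 1 male pool, and number 3 holds both male replicate 4 and female replicate 5. The X-linked members were lower in males for 4 of 4 within each library number, with medians of -0.69, -0.66 and -0.36.

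Male replicate 5 had another profile than the other males. Of the 81 tested members 47 lay below all 4 other males and 6 lay above them. The members above were RPS2, RPL7A, RPL13, RPLP0, RPL12 and RPL3. RPS2, for example, had 1184 CPM in male replicate 5 and 671 to 858 in the others, while RPS26 had 435 CPM against 599 to 859. RPL35A had 318 CPM against 473 to 655. Members were otherwise steady between pools of a sex, with a median SD of log2 CPM of 0.190, against 0.483 over all tested genes and 0.283 over the 1761 tested genes at or above the level of the lowest member. RPS3, a protein at the mRNA entry channel, had the smallest SD (0.0925).

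**Figure D5:**
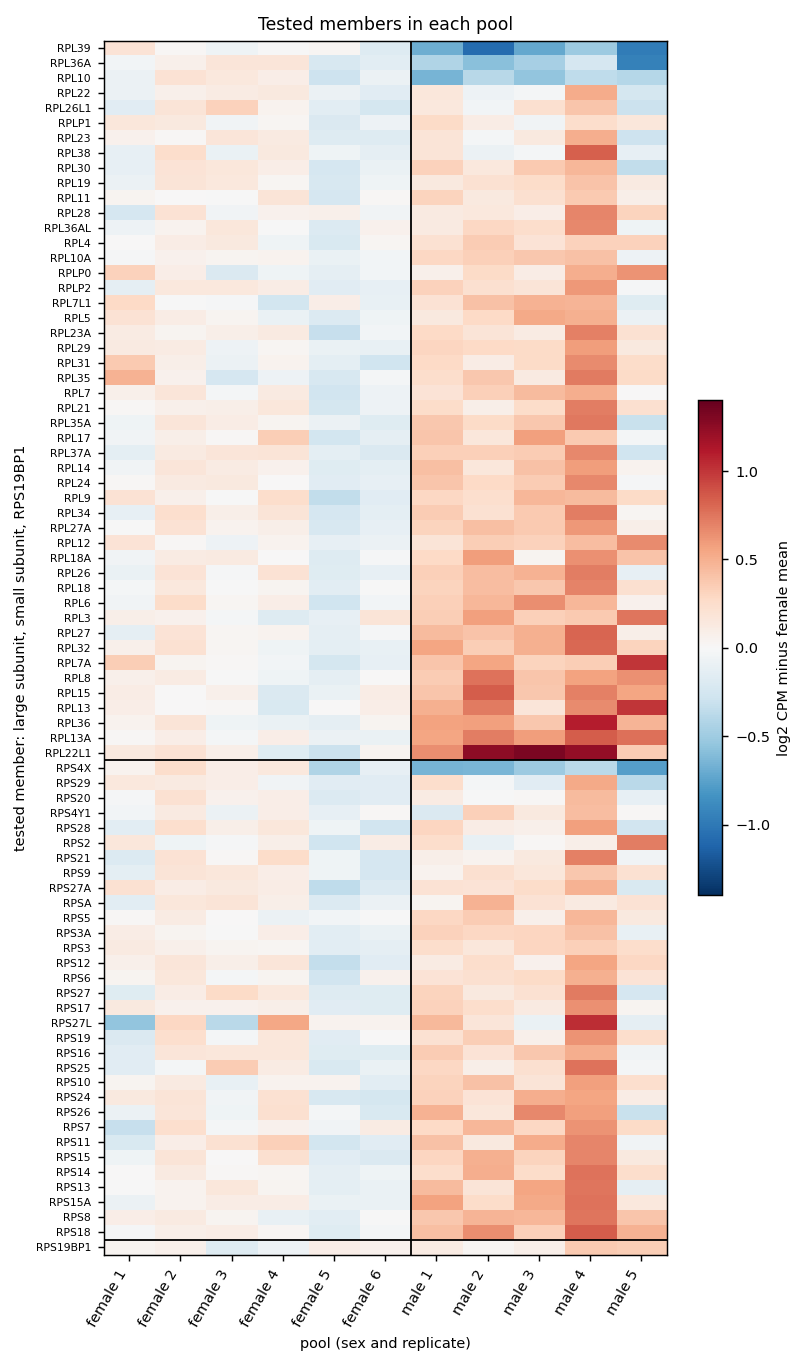
Log2 CPM of each tested member minus its mean over the female pools (colour, red higher and blue lower) in 6 female and 5 male pools (columns), with the large subunit above the small subunit and RPS19BP1 last. Male replicate 4 is the reddest column, male replicate 5 is mixed, and RPL39, RPL36A, RPL10 and RPS4X are blue in the males.

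Other genes of the translation apparatus were set beside the members. FAU, which encodes a small subunit protein fused to a ubiquitin-like protein, had a log2 fold change of 0.49 (SE 0.15, adjusted p = 0.179). Of 17 other mRNAs that start with the TOP motif, 17 had a log2 fold change above 0, with a median of 0.21, but 10 did with library totals and no scaling factors (median 0.090) and 13 without male replicate 4 (median 0.13). In the edgeR test with the library number as a block 0 of them were called, and 7 were higher in males at an unadjusted p under 0.05, beside 6.47% of autosomal genes. Called higher in males were 2 in edgeR with no replicate block, 3 with genes of low counts kept (1 count or more) and 1 without male replicate 4. DESeq2 called 2 with the library number and 3 without it, where it called 611 and 656 of the 12802 tested genes in either direction. EEF1G, a subunit of the elongation factor complex, had 372 to 528 CPM in females and 528 to 964 in males (0.58, SE 0.16, adjusted p = 0.122), and RACK1, a scaffold protein on the small subunit, had 808 to 1192 and 1116 to 1540 (0.43, SE 0.14, adjusted p = 0.183). EEF1A1, which brings tRNAs to the ribosome, had a log2 fold change of 0.29 (SE 0.14, adjusted p = 0.377).

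Genes that build and control ribosomes were described in the same way. Of 34 genes of ribosome assembly, 22 had log2 fold changes above 0 and 12 below 0, with a median of 0.08 that turned to -0.044 with library totals and no scaling factors and to -0.0061 without male replicate 4. The 1 called was UTP14A, an X-linked gene needed to process the RNA of the small subunit, which fell in males (-0.81, SE 0.18, adjusted p = 0.0627) from 65.9 to 90.4 CPM in females to 34.7 to 62.4, beside 27.7% of X-linked genes called higher in females. A call was made in this list in 3 of the 11 fits without 1 library (those without female replicate 3, male replicate 4 or male replicate 5), and 0 genes of the list were called in the other fits of this kind or with a block of the title numbers. Of 8 genes of RNA polymerase I, which transcribes ribosomal RNA, 2 lay above 0 and 6 below, and of 9 genes that control the translation of TOP mRNAs (the mTOR complex, LARP1, the EIF4E-binding proteins and the S6 kinases) 4 lay above 0 and 5 below. The latter count above 0 ran from 2 (without male replicate 5) to 7 (without male replicate 3 or 4) when 1 library was left out. In these last 2 lists 0 genes were called by edgeR or DESeq2 and 0 had an unadjusted p under 0.05 by edgeR.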

How the data were processed

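RNA-seq libraries were made from each pool with the SMART-Seq HT PLUS kit, with no separate RNA extraction. The deposited values were raw counts per gene, which the authors obtained with featureCounts from reads trimmed by fastp 0.20.0 and mapped by STAR 2.7.10b on the ARS-UCD2.0 assembly, and did not normalize. The strand setting and the treatment of reads with several matches are not given in the sources used here. Positions came from RefSeq's annotation of this assembly, matched by symbol (30271 of 32637 matched, with all 85 members). Of the members, 8 lie over another protein-coding gene and 27 hold a snoRNA, so their reads could be shared.

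The software was edgeR 4.0.16 under R 4.3.3. After filterByExpr with sex as the group, 12802 genes were kept, and libraries were scaled by TMM. Sex was tested by quasi-likelihood, and the library number (1 to 3) entered as a block in place of the study's collection week, which the labels do not give. P-values were adjusted over all tested genes by Benjamini-Hochberg. The test gives no standard error, so SE is the absolute log2 fold change divided by the square root of its F statistic. Log2 CPM used a prior count of 2. Levels in the text are CPM scaled with TMM factors, and they depend on gene length, so they were compared between pools and not between genes. DESeq2 1.42.0 was an alternative. The limit of 3 counts per library and the error of 3.52% cover counting error only, and reads carried no molecular identifiers. SE and SD values include the spread between pools.

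The members and the gene lists were chosen with earlier results of these data known. Genes named singly were the X-linked members and their autosomal partners, those called, the 5 with the smallest p in each direction, paralogs with their parents, the stalk proteins, RPSA and RPS19BP1. Members with the highest and lowest level per coding length were to be named too, but exon lengths and sequences were not analysed here. Values beyond this rule in the text (RPS18, the pools' extremes and the overlapping genes) were chosen after they were seen. The Iso-seq sample was not used, and 1 further gene of the lists is not reported here.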

Additional observations from a re-analysis of the deposited data

Results flagged for a closer look

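Of 72 sets of values by sex examined, 3 held a library far from the others of its sex, by a gap test that chance alone passes for about 1 group in 20. RPL13 was low in female replicate 4, at 421.8 CPM against 490.6 to 522.3 in the other females. RPL36 was high in male replicate 4, at 419.4 CPM against 253.9 to 292.0 in the other males. The ratio of RPL26L1 to RPL26 counts was high in female replicate 3, at 0.586 against 0.414 to 0.471 in the other females.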

How the results depend on the processing

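The 4 X-linked members were lower in males and 77 of 77 autosomal members higher in males under each alternative run, except that 74 autosomal members were higher with library totals and no scaling factors, 71 without male replicate 4, and 72 without male replicate 4 and female replicate 5. Library totals without scaling factors (an alternative chosen after seeing the data) moved the median of all tested genes from 0.01 to -0.10 and the share above 0 from 50.5% to 38.9%, with 25 genes called higher and 265 lower in males against 53 and 192. There the medians were 0.20 for autosomal members, 0.21 for the large subunit, 0.17 for the small subunit and -0.64 for X-linked members, and 1 member was called higher in males and 3 lower. RPL22 turned to -0.018. Without both extreme libraries 1 was called higher and 3 lower, the X-linked median was -0.68 and RPL22 was -0.055. Without male replicate 4 RPL22 was -0.071 and RPL26L1 -0.020, and without any 1 library they ran up to 0.18 and 0.20. Calls higher and lower in males were 5 and 2 with DESeq2 without the library number (611 genes called in all with the library number, 656 without, against 245 by edgeR), 2 and 2 with TMM factors from autosomal genes, 3 and 2 with at least 10 counts in every library, and 0 and 0 by edgeR's test against a fold change of 1.5. Leaving out 1 library gave 1 to 4 calls higher in males (1 without male replicate 3) and 1 to 3 lower (2 without female replicate 5, 3 without male replicate 4), with medians of 0.21 to 0.36 for autosomal members and the large subunit, 0.19 to 0.34 for the small subunit and -0.66 to -0.49 for X-linked members. The cause of these shifts was not tested. The ratio of large to small subunit counts was 1.20 in females and 1.25 in males with core members alone, and 0.755 and 0.823 as a ratio of medians. A ratio per coding length was not run, since lengths were not analysed here.

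With no replicate block 4 members were called higher and 2 lower in males, and 326 genes in all. With a replicate block of the title numbers 2 were called higher and 1 lower, and 132 genes in all. Deviations from the sex means had correlations of -0.11 to 0.35 between a female and a male pool with the same title number. Between the female and the male mean of a library number they were 0.01 to 0.37. Pools with unlike numbers were not compared, so these values cannot show whether pools that share a number were paired.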
